A study of Rattus norvegicus with 4 samples.

Results

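Apolipoproteins and other carriers, exporters and stores of lipid were followed across the cells of the rat pituitary. The set holds 9 genes, chosen by name: the secreted carriers Apoe, Clu and Apod, the lipase Lpl, the membrane exporters Abca1 and Abcg1, the intracellular carriers Fabp5 and Npc2, and the lipid droplet protein Plin2. All 9 of 9 were found among the 32883 genes of the count matrix, and all 9 passed the filter on low counts. The choice uses no threshold on measured values.

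The data are UMI counts (unique molecular identifiers, 1 per captured messenger RNA) from droplet single-cell sequencing with a 10x Genomics 3' kit. Every gland came from female Sprague Dawley rats aged 75 days, past puberty and at random stages of the estrous cycle, with no treatment or genetic change. In the dissected preparation, 30 pituitaries were cut into anterior and posterior parts, each giving 1 library. In the whole-gland preparation, 30 undivided pituitaries were dispersed into 1 suspension that was run on 2 lanes. Each library therefore pools many animals, the lanes are technical repeats, and the spread between animals cannot be seen. The tests below rest on how class differences vary between these 2 preparations, with the spread shared over 11 cell classes.

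Apolipoproteins coat lipid particles and let cholesterol and phospholipid travel between cells. In the brain, where the large plasma lipoproteins do not enter freely, astrocytes make apolipoprotein E, the exporters Abca1 and Abcg1 load it with lipid, and receptors of the low-density lipoprotein family take it up. Folliculostellate cells of the anterior lobe and pituicytes of the posterior lobe are the non-endocrine, glia-like cells of the pituitary, and resident macrophages take up and break down lipid as they do in other tissues.

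After filtering, 19777 cells remained, 5503 from the anterior library, 3832 from the posterior library, and 5530 and 4912 from the whole-gland lanes. Median depth was 9572.5 to 10604.5 UMIs per cell by library. Cells were clustered without the 9 genes and named from marker genes, with the ending "-like". S100b, a marker of folliculostellate cells and pituicytes, stood at 785 to 963 CPM (UMIs of the gene scaled to a fixed total of all UMIs of the class) in folliculostellate-like cells and at 611 CPM in pituicyte-like cells of the posterior library. In the pooled hormone cells (lactotroph-, somatotroph-, corticotroph-, gonadotroph- and thyrotroph-like) it stood at 1.35 to 4.41 CPM. In some clusters the 10 leading genes held none of the markers of their class. Besides a macrophage-like cluster described below, these were the folliculostellate-like cluster led by Krt17 (659 cells) and the larger pituicyte-like cluster (736 cells). The lactotroph-like clusters led by Cartpt and by Mzb1 were also without one. Of 6 fibroblast markers, 1 (Col1a2) was at 0 in every library. Libraries shared 3 to 10 cell barcodes per pair. Because cells are dispersed and captured, a class's share of cells also depends on dissociation.

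Apoe, the main lipid carrier secreted by astrocytes, was the member with the largest fitted difference between glia-like and hormone cells. In pituicyte-like cells it stood at 16540 CPM in the posterior library and at 19050 and 18130 CPM in the whole-gland lanes. In folliculostellate-like cells it stood at 12950 CPM in the anterior library, 11240 in the posterior library, and 11490 and 11420 in the lanes. Both classes were high in every library in which they were counted.

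Apoe was not limited to glia-like cells. Fibroblast-like cells, which make the collagen of the stroma and capsule, stood at 10410, 11600, 14150 and 11070 CPM in the anterior, posterior and 2 whole-gland libraries. Their values overlapped those of folliculostellate-like cells between the preparations. Schwann-like cells, the glia of peripheral nerve, stood at 23900 CPM in the posterior library (exact 95% Poisson interval 23360 to 24440, from 7499 UMIs in 64 cells) and were too few elsewhere. Endothelial-like cells ranged from 3471 to 8122 CPM, with the posterior library lowest, but the class held other cells there. The cluster led by Aqp1, a water channel, gave 201 of the 240 endothelial-like cells of the posterior library and none of the 79 of the anterior library, and it stood at 2276, 1876 and 2376 CPM in the posterior library and the lanes. The other endothelial-like cluster stood at 6749, 7765, 7786 and 8487 CPM in the 4 libraries, with the anterior library lowest.

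**Figure D1:**
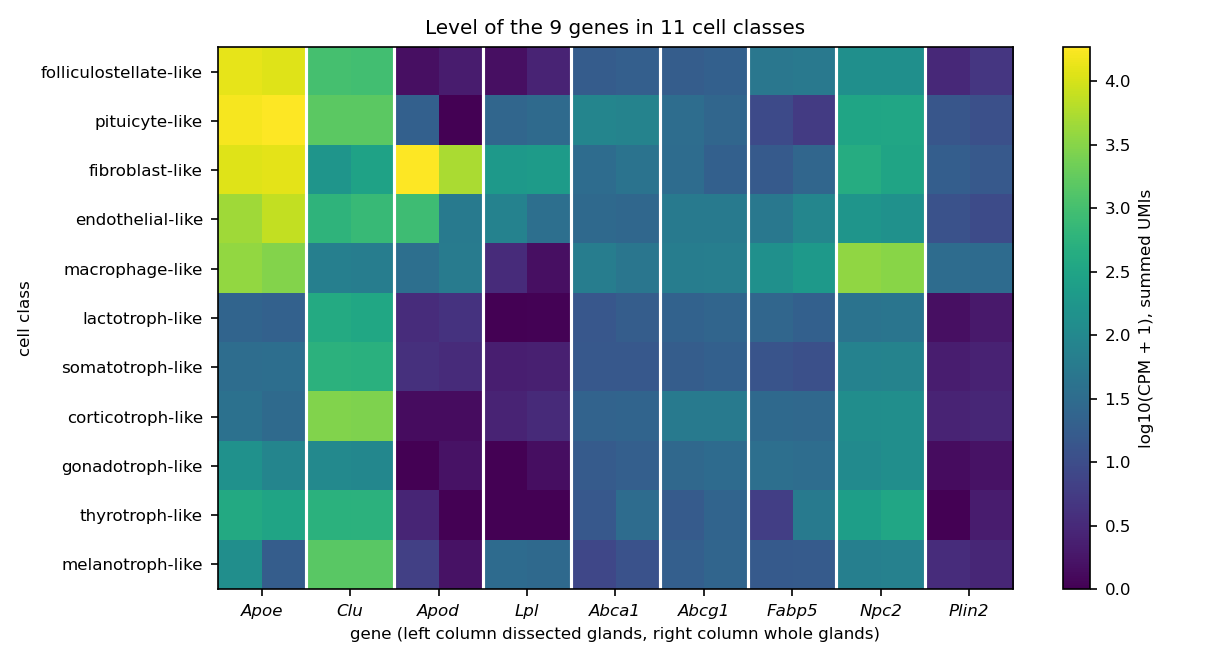
Heat map of log10(CPM + 1) for the 9 genes (columns, with the dissected preparation on the left and whole glands on the right of each pair) in 11 cell classes (rows). Apoe is bright in the 5 non-endocrine classes, Clu in corticotroph-like cells, Apod and Lpl in fibroblast-like cells, and Npc2 in macrophage-like cells, in both preparations.

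Because glia-like cells differ in number between the lobes, the source of the Apoe UMIs also differed. In the anterior library folliculostellate-like cells gave 88.7% of all Apoe UMIs from 15.4% of cells. In the posterior library pituicyte-like cells gave 63.9% from 28.9% of cells, followed by folliculostellate-like cells with 19.2%, fibroblast-like cells with 5.09%, macrophage-like cells with 4.21% and Schwann-like cells with 3.24%. In whole-gland lane 1 the shares were 74.7% for folliculostellate-like cells, 8.80% for endothelial-like cells and 7.30% for pituicyte-like cells.

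Most glia-like cells carried Apoe. With each cell thinned to 1000 UMIs, so that depth does not set the share, 99.3% of pituicyte-like cells of the posterior library held at least 1 Apoe UMI (99.9% unthinned, median depth 6312 UMIs), and 89.6% of folliculostellate-like cells of the anterior library did (95.2% unthinned, median depth 6372.5). In lactotroph-like cells, which secrete prolactin and are used here as a class that should lack the gene, the thinned share was 1.71% in the anterior library (20.04% unthinned, median depth 15141) and 9.80% in the posterior library (74.8% unthinned, median depth 27148).

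Folliculostellate-like cells were not uniform. They fell into 3 clusters, described one by one after their values were seen, and the level of Apoe differed several-fold between them. The cluster led by Gpha2, Guca2b and Hes5 (675 cells, median depth 4496 UMIs) stood at 25770, 33830, 21780 and 18410 CPM in the anterior, posterior and 2 whole-gland libraries. The larger cluster led by Gpha2, Guca2b and Tagln (1532 cells, median depth 6420.5) stood at 17260, 19500, 15930 and 16970 CPM. The cluster led by Krt17, a keratin (659 cells, median depth 11284), stood at 5081, 4578, 3620 and 3499 CPM.

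The 3 clusters kept the same order in each library, with the Krt17-led cluster lowest. After thinning, 70.2% of its cells in the dissected glands and 58.0% in whole glands held an Apoe UMI, against 94.8% and 94.6% in the larger cluster. Clu went the other way, with 1286, 2304, 1178 and 1216 CPM in the Krt17-led cluster and 826, 828, 778 and 766 CPM in the larger cluster. Whether depth, which also differs between these clusters, has a part in the CPM was not tested.

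Macrophage-like cells were split as well. The cluster led by major histocompatibility complex (MHC) class II genes, which present antigen, held 544 of the 823 cells. Its 10 leading genes included none of the macrophage markers used for naming and 1 marker of other myeloid cells (Lyz2), so the clusters are given apart. It stood at 855, 624, 866 and 796 CPM of Apoe in the anterior, posterior and 2 whole-gland libraries. The cluster led by Ccl3, C1qa and Trem2 (279 cells) stood at 16030, 6491, 13840 and 7236 CPM, in the range of the glia-like cells in some libraries. The values did not overlap. Since the second cluster gave 190 of the 273 macrophage-like cells of the posterior library and 14 of the 169 of the anterior library, a macrophage-like mean of Apoe moves with the mix of the clusters.

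**Figure D2:**
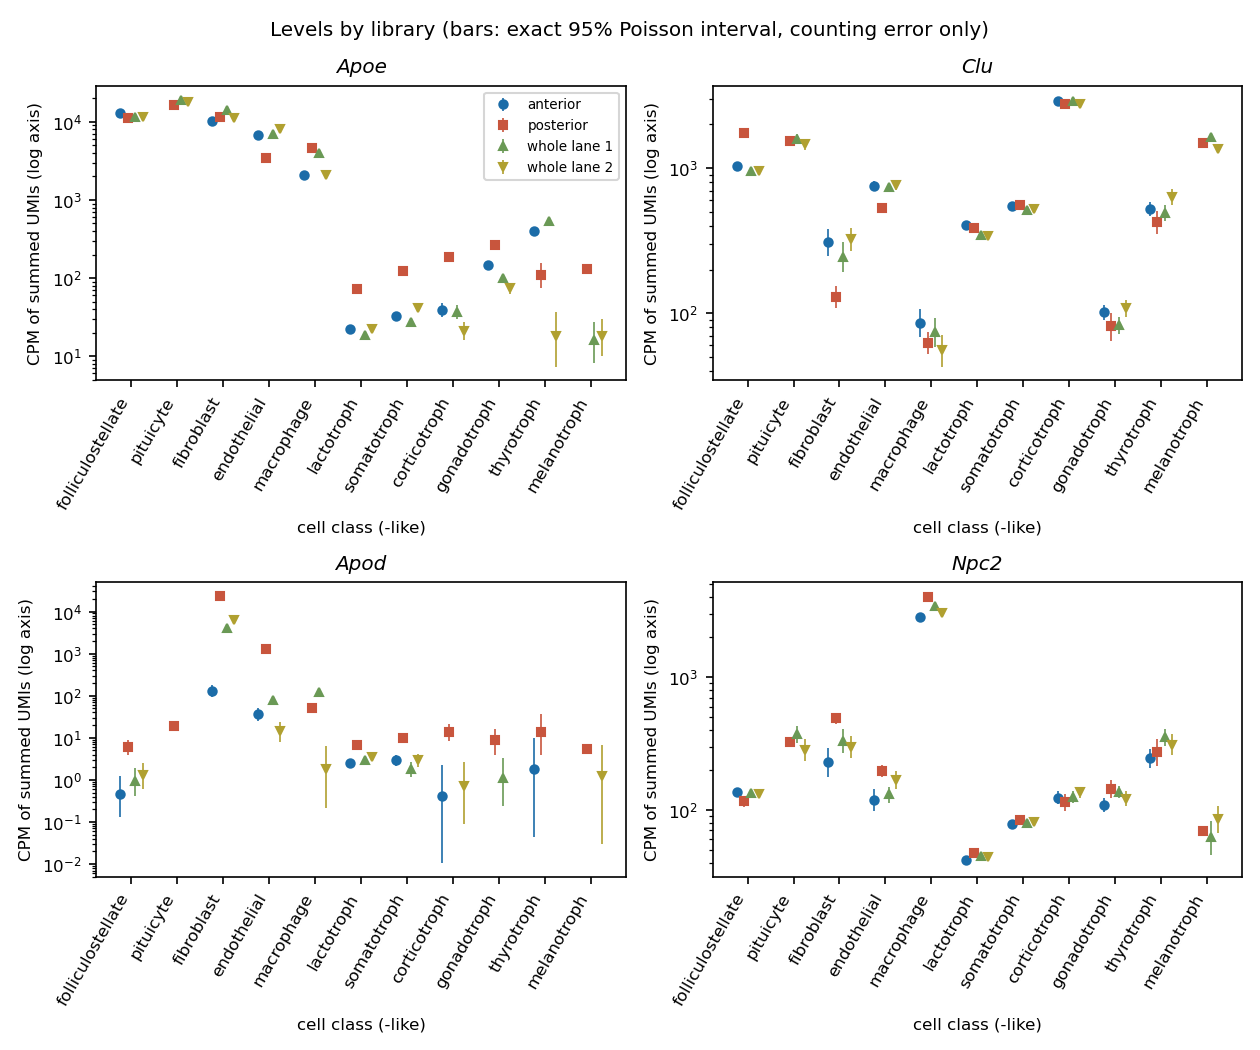
CPM of Apoe, Clu, Apod and Npc2 (log axis) in 11 cell classes, 1 point per library with its exact 95% Poisson interval, which covers counting error only; points at 0 UMIs are not drawn. For Apoe the posterior library (squares) lies above the others in most hormone classes, while for Clu and Npc2 the libraries lie close together in those classes, and Apod in fibroblast-like cells runs from 132.8 to 23290 CPM.

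Hormone cells carried little Apoe, and what they carried followed the library. In lactotroph-like cells it stood at 22.6 CPM in the anterior library, 73.1 in the posterior library, and 18.4 and 21.9 in the whole-gland lanes. Somatotroph-like cells, which secrete growth hormone, stood at 32.9, 122.6, 27.3 and 40.9 CPM. Corticotroph-like cells, which secrete adrenocorticotropic hormone, stood at 38.7, 186.7, 37.1 and 21.2 CPM. In all 3 classes the posterior library was the highest. Over the pooled hormone cells, Apoe was 2.97 times as high in the posterior as in the anterior library (106.5 against 35.8 CPM). With 1 library per lobe, there is no test of this difference.

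The same ratio was computed for S100b, the marker of glia-like cells. It was 3.06 times as high in the posterior library (4.41 against 1.44 CPM), and Apod was 3.58 times as high (8.44 against 2.36 CPM). Lpl had a ratio of 1.73 and Plin2 of 1.53, each from 15 to 38 UMIs per library. Clu (1.09), Abca1 (1.07), Abcg1 (1.07), Npc2 (1.18) and Fabp5 (0.828) stayed near a ratio of 1. Deposited barcodes under 1000 UMIs, which were not used as cells, held 1233 CPM of Apoe in the anterior library and 11210 CPM in the posterior library, 9.09 times as much. In the same barcodes the ratio was 4.44 for Clu, 3.51 for Npc2, 4.74 for Abcg1 and 2.76 for Fabp5, the last 2 from 4 UMIs each in the anterior library. No ratio is given for the other members, whose anterior counts were smaller still. Apod had 2 UMIs (2.76 CPM) in the anterior and 1279 UMIs (1396 CPM) in the posterior barcodes. Abca1 had 3 and 55 UMIs, Lpl 1 and 13, and Plin2 2 and 9.

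Apoe was also set against S100b. Hormone cells held 24.9, 24.2, 22.9 and 21.9 Apoe UMIs per S100b UMI in the anterior, posterior and 2 whole-gland libraries. Folliculostellate-like cells held 13.4, 14.3, 12.9 and 12.96, pituicyte-like cells of the posterior library 27.1, and the barcodes under 1000 UMIs 15.7, 23.3, 20.8 and 13.02. The S100b counts of the pooled hormone cells behind the ratios were 61 to 93 UMIs per library. The ratios moved with 14 to 23 hormone cells per library that held at least 10 Apoe UMIs each, a limit chosen after the values were seen. In the anterior library 18 such cells held 995 of the 1915 Apoe UMIs and 8 of the 77 S100b UMIs. Without them the ratios were 13.3 (exact 95% binomial interval 10.4 to 17.3), 23.3 (18.4 to 29.9), 16.4 (12.7 to 21.6) and 15.9 (11.98 to 21.4). The part of free RNA in the hormone cells' Apoe was not tested.

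Part of the Apoe in hormone classes came from a few cells. The cells with at least 10 Apoe UMIs were counted in each class. In thyrotroph-like cells, 2 of 51 cells of the anterior library held 93.3% of the class's Apoe UMIs, and 4 of 44 cells of whole-gland lane 1 held 96.2%. Without them the level went from 394.7 to 27.4 CPM and from 535.0 to 22.3 CPM. Whole-gland lane 2 had no such cell and stood at 18.1 CPM.

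Gonadotroph-like cells were alike in this, with 7 of 199 cells holding 86.7% of their Apoe UMIs in the anterior library. Their levels without such cells were 20, 119.6, 28.7 and 21.7 CPM, against 145.9, 267.9, 99.3 and 74.1 CPM with them. None of the high cells in the anterior and whole-gland libraries of these 2 classes held an S100b UMI, while 1 of 5 gonadotroph-like ones of the posterior library did. S100b was present in 3 of 4, 3 of 7, 1 of 3 and 3 of 7 high lactotroph-like cells of the 4 libraries and in 8 of 12 high melanotroph-like cells of the posterior library. Of the other cells, 1.85%, 5.66%, 1.70% and 1.29% of lactotroph-like and 38.2% of melanotroph-like cells held an S100b UMI. Lactotroph-like cells stood at 15.1, 61.7, 16.8 and 14.9 CPM without them, and the posterior library was still the highest.

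**Figure D3:**
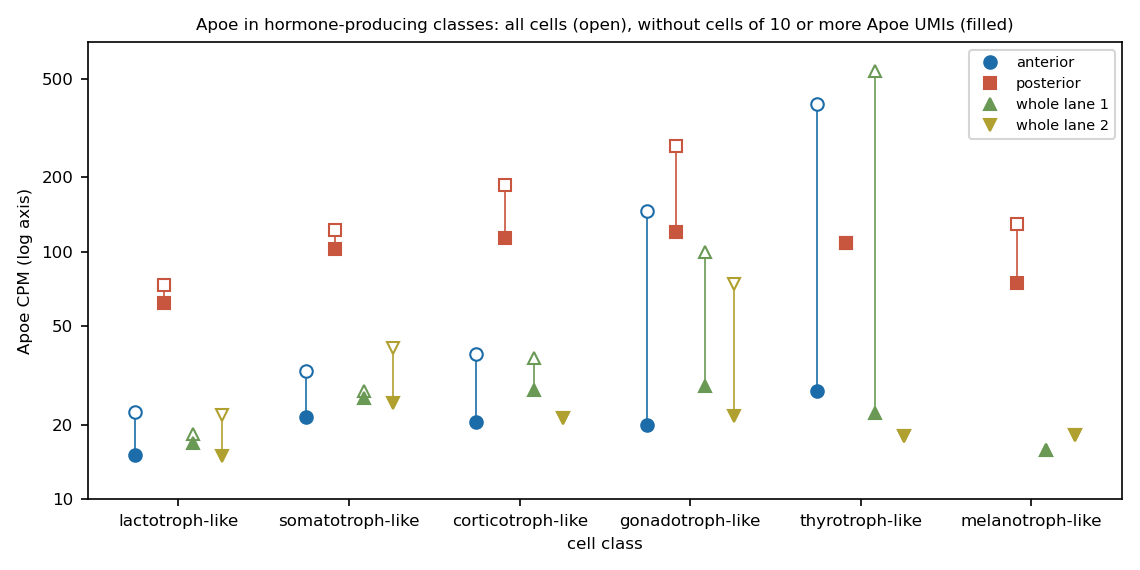
CPM of Apoe in 6 hormone-producing classes by library, with all cells (open) and without cells of at least 10 Apoe UMIs (filled); classes with under 20 cells in a library are not drawn. Without those cells the anterior and whole-gland values of the classes lie between 14.9 and 28.7 CPM, and the posterior values between 61.7 and 119.6 CPM.

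Clu, which encodes clusterin, a secreted chaperone that also travels on lipoproteins, had another pattern: its top class was a hormone class. Corticotroph-like cells stood at 2910, 2771, 2905 and 2752 CPM in the anterior, posterior and 2 whole-gland libraries. Melanotroph-like cells of the intermediate lobe, the other class that makes the Pomc precursor, stood at 1496 CPM in the posterior library and 1638 and 1359 CPM in the lanes. Pituicyte-like cells stood at 1544, 1597 and 1457 CPM.

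Folliculostellate-like cells came next with 1029, 1749, 949.5 and 961 CPM of Clu. The posterior library was highest there. In the Krt17-led cluster Clu stood at 2304 CPM in the posterior library against 1178 to 1286 CPM in the others, while in the larger cluster it stood at 828 against 766 to 826 CPM. Somatotroph-like cells (513 to 562 CPM) and lactotroph-like cells (340 to 408 CPM) had intermediate values. Gonadotroph-like cells, which secrete the gonadotropins, stood at 81.2 to 107.9 CPM and macrophage-like cells at 55.6 to 86.1 CPM. Of the 10 neighboring pairs in the order of 11 classes, 1 pair (thyrotroph- and somatotroph-like) overlapped between preparations.

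The corticotroph-like level of Clu was a level of most cells. After thinning, 94.1%, 87.7%, 90.9% and 94.3% of corticotroph-like cells held a Clu UMI (99.7% to 100% unthinned, median depth 6893 to 12678 UMIs). In gonadotroph-like cells of the anterior library 6.53% did (45.2% unthinned, median depth 12816), so the share differed between hormone classes of the same library. Because lactotroph-like cells are many, they still gave 35.7% of the Clu UMIs of the anterior library, against 18.3% from corticotroph-like cells and 22.3% from folliculostellate-like cells.

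Apod encodes apolipoprotein D, a small carrier of the lipocalin family. It was found mainly in fibroblast-like cells, and there it differed widely between libraries: 132.8 CPM in the anterior library (37 UMIs), 23290 in the posterior library, and 4007 and 6281 in lanes 1 and 2 of whole glands. The posterior library was high and the anterior library low, with no overlap of counting intervals. Apoe and Lpl in the same cells did not follow this order, since Lpl stood at 190.2, 196.1, 268.3 and 182.7 CPM. In the anterior library 1 cell gave 56.8% of the fibroblast-like Apod UMIs.

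The makeup of the fibroblast-like class moved with Apod. The summed level of 6 fibroblast markers was 6158 CPM in the anterior library and 26540 CPM in the posterior library, and that of 5 pericyte markers was 7109 and 1317 CPM. Prl, the hormone transcript of lactotrophs, stood at 137200 CPM in the fibroblast-like cells of the anterior library and at 3325 CPM in those of the posterior library. Of the 42 cells of the anterior library, 73.8% held at least 5 UMIs of Rgs5, a pericyte gene, and 4.76% held at least 5 of Apod. Of the 158 of the posterior library the shares were 18.4% and 75.3%. In lanes 1 and 2 of whole glands, 54.5% and 60.7% held Rgs5 and 24.2% and 17.9% held Apod at that level.

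Apod and Rgs5 were rarely in the same cell. Of 322 fibroblast-like cells, 147 held at least 5 UMIs of Apod and 130 at least 5 of Rgs5, and 4 held both, while 145 held both Apod and Dcn, which encodes the matrix protein decorin. The limit of 5 UMIs was chosen after the values were seen. Among cells with Dcn and without Rgs5 at that limit, Apod stood at 135.4 CPM in the anterior library (8 cells), 26170 in the posterior library (124 cells), and 8412 (27 cells) and 14160 (22 cells) in the lanes. The order of the libraries was thus the same when cells with Rgs5 were left aside. For Lpl, the cells with Rgs5 stood at 224.8, 582.3, 309.4 and 206.3 CPM and those with Dcn alone at 84.6, 149.9, 232.1 and 152.5 CPM.

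**Figure D4:**
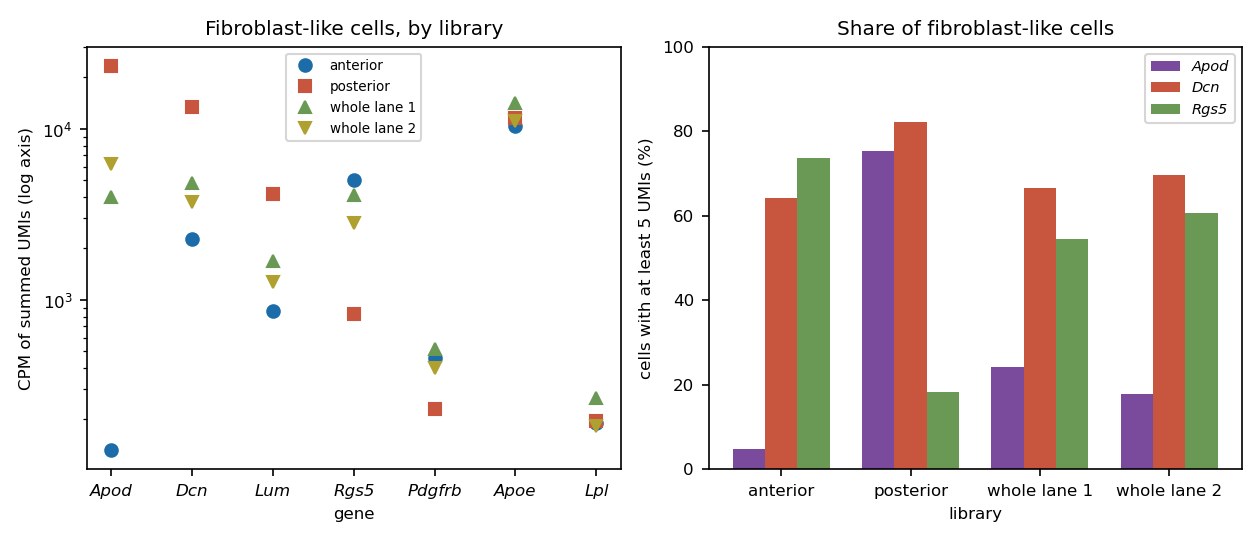
Left, CPM of Apod, Dcn, Lum, Rgs5, Pdgfrb, Apoe and Lpl in fibroblast-like cells of each library (log axis); right, percent of fibroblast-like cells with at least 5 UMIs of Apod, Dcn and Rgs5. Apod runs from 132.8 CPM (anterior) to 23290 CPM (posterior) while Apoe and Lpl stay within a narrow range, and the posterior library has the largest share of Apod cells (75.3%) and the smallest of Rgs5 cells (18.4%).

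Outside fibroblast-like cells, Apod was thinly spread. Schwann-like cells of the posterior library stood at 1045 CPM (interval 935.1 to 1165). The Aqp1-led endothelial-like cluster stood at 1651 CPM in the posterior library, 463.7 in lane 1 and 52.0 in lane 2 (3 UMIs), and the other endothelial-like cluster at 35.9, 105.8, 26.4 and 12.1 CPM. In the endothelial-like class as a whole, Apod stood at 35.9, 1315, 77.95 and 14.5 CPM in the 4 libraries. Fibroblast markers there were likewise highest in the posterior library and lowest in lane 2. Between the anterior library and lane 1 these markers had the opposite order to Apod. Their summed level was 605.7, 2162, 562.0 and 350.4 CPM in the 4 libraries, with 4 to 5 of the 6 markers detected, and Dcn stood at 212.1, 1046, 195.5 and 75.5 CPM. Their part in the Apod values was not tested. In macrophage-like cells of whole-gland lane 1, a single cell gave 92.7% of the 123 UMIs. Macrophage-like cells held 0 Apod UMIs in the anterior library and 2 in lane 2. In the posterior library the MHC class II cluster stood at 54.6 CPM (37 UMIs) and the other at 48.05 CPM (69 UMIs). Barcodes under 1000 UMIs of that library held 1396 CPM of Apod. The part of free RNA in these macrophage-like values was not tested. Pituicyte-like cells held 172 Apod UMIs in the posterior library (19.3 CPM, of which 1 cell gave 32.0%) and none in the whole-gland lanes, where a count of 0 allows up to 3.41 CPM. Folliculostellate-like cells stood at 0.472, 6.06, 0.960 and 1.31 CPM.

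Lpl encodes lipoprotein lipase, which releases fatty acids from lipoproteins at the vessel wall. Its top class was again fibroblast-like cells (183 to 268 CPM), and the values did not overlap those of any other of the 11 classes between preparations. Within this class, Lpl was higher in cells with Rgs5 than in cells with Dcn and without Rgs5, in each library. In endothelial-like cells it stood at 27.2, 103.7, 44.6 and 19.6 CPM. The Aqp1-led cluster, whose 201 dissected cells all came from the posterior library, stood at 122.8, 197.2 and 69.4 CPM in the posterior library and the lanes. The other endothelial-like cluster stood at 27.2, 35.3, 24.2 and 16.5 CPM. The pericyte gene Rgs5 was among the leading genes of the Aqp1-led cluster. In the endothelial-like class Rgs5 stood at 356.7, 2106, 795.2 and 916.7 CPM in the anterior, posterior and whole-gland libraries. Whether pericytes have a part in these Lpl values was not tested.

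Both classes met mainly in the posterior library, melanotroph- and pituicyte-like cells, also carried Lpl at low levels. Melanotroph-like cells stood at 30.7, 35.6 and 21.7 CPM in the posterior library and the lanes, and pituicyte-like cells at 24.3, 26.5 and 30.9 CPM, so these 2 classes overlapped. Folliculostellate-like cells stood at 0.472 CPM in the anterior library (4 UMIs), 11.9 in the posterior library, and 1.68 and 1.74 in the lanes. The posterior value came from the Krt17-led cluster, which held 45 of the 47 UMIs (18.4 CPM), while the larger cluster held none there. Thyrotroph-like cells held no Lpl UMI in any library, which allows up to 3.40 CPM in whole glands and 5.31 CPM in dissected glands. Melanotroph-like cells gave 28.6% of the Lpl UMIs of the posterior library, pituicyte-like cells 22.4% and fibroblast-like cells 20.6%.

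Abca1, the pump that loads lipid onto free apolipoproteins, had its top level in pituicyte-like cells, with 86.9 CPM in the posterior library and 83.5 and 74.8 CPM in the lanes. Macrophage-like cells followed with 51.6, 68.6, 55.0 and 38.6 CPM. Folliculostellate-like cells stood at 16.3, 25.5, 18.8 and 18.9 CPM, among the hormone classes in the order, where 5 of 10 neighboring pairs overlapped. Pituicyte-like cells gave 51.6% of the Abca1 UMIs of the posterior library. The 2 glia-like classes, close in Apoe, were thus apart in Abca1.

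Abcg1, which moves sterol onto lipoprotein particles that already carry lipid, had the smallest ratio of its top to its bottom class (3.54 over 11 classes). Macrophage-like cells stood at 54.9, 66.2, 72.0 and 60.1 CPM, corticotroph-like cells at 57.4, 49.9, 53.9 and 59.6 CPM, and endothelial-like cells at 55.5, 57.6, 50.3 and 58.9 CPM. Pituicyte-like cells stood at 33.2, 28.5 and 20.6 CPM and folliculostellate-like cells at 17.1, 19.2, 20.5 and 18.02 CPM. Of the 10 neighboring pairs 8 overlapped between preparations, so most of the order cannot be read.

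Fabp5, a carrier of fatty acids inside cells, stood at 235.7, 97.4, 238.0 and 156.1 CPM in macrophage-like cells. By cluster these were 249.9, 179.9, 309.6 and 177.0 CPM in the MHC class II cluster and 78.0, 58.5, 8.41 and 71.9 CPM in the other, so the posterior library, where the other cluster prevailed, was lowest for the class. Schwann-like cells of the posterior library stood at 943.2 CPM (interval 838.8 to 1057) and gave 20.2% of that library's Fabp5 UMIs from 1.67% of its cells. Folliculostellate-like cells stood at 48.8, 50.5, 48.5 and 58.1 CPM and pituicyte-like cells at 8.17, 6.11 and 2.58 CPM. The 2 glia-like classes did not overlap. In thyrotroph-like cells of whole-gland lane 2, all 37 Fabp5 UMIs were in 1 cell.

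Npc2, which hands cholesterol on inside the lysosome, was concentrated in macrophage-like cells, at 2843, 3995, 3410 and 3009 CPM. Both clusters had it, with 2676, 2718, 3004 and 2544 CPM in the MHC class II cluster and 4694, 4598, 4711 and 4876 CPM in the other. The next class, fibroblast-like cells, stood at 229.7, 488.8, 332.8 and 298.5 CPM. After thinning, 89.9%, 91.9%, 89.4% and 82.4% of macrophage-like cells held an Npc2 UMI (94.3% to 100% unthinned, median depth 4566 to 7634 UMIs), against 3.91% of lactotroph-like cells of the anterior library (44.0% unthinned, median depth 15141). Macrophage-like cells gave 36.4% to 56.4% of each library's Npc2 UMIs. Pituicyte-like cells stood at 327.0, 370.7 and 283.7 CPM and folliculostellate-like cells at 135.4, 116.2, 134.4 and 131.9 CPM.

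Plin2, which coats lipid droplets, was low in the 11 classes. Macrophage-like cells stood at 36.6, 28.4, 35.0 and 25.1 CPM, fibroblast-like cells at 14.4, 18.7, 16.98 and 12.9 CPM, and pituicyte-like cells at 12.9, 14.3 and 5.16 CPM. Folliculostellate-like cells stood at 2.13, 3.54, 3.96 and 3.63 CPM. Schwann-like cells of the posterior library stood at 95.6 CPM, from 30 UMIs (interval 64.5 to 136.5). The highest values were in other myeloid-like cells, a class too small for the tests, at 292.2 CPM in dissected glands (12 UMIs in 13 cells, interval 151.0 to 510.5) and 145.5 CPM in whole glands (9 UMIs in 15 cells, interval 66.5 to 276.1). Thyrotroph-like cells held 1 UMI in whole glands and none in the anterior library.

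The classes were then compared by edgeR's quasi-likelihood test on UMIs summed per class and preparation, with preparation as a term, over 14664 genes. Genes were called where the p-value, adjusted by Benjamini-Hochberg over all of them, was under 0.05 and the log2 fold change was at least 1 in size. Fitted fold changes use trimmed-mean scaling, which allows for the RNA taken up by hormone transcripts, so they differ from ratios of the CPM above. The comparisons share classes, so they are not independent of each other. In the dissected glands folliculostellate-like and hormone cells come from the anterior library and pituicyte- and melanotroph-like cells from the posterior library, so there class and library cannot be told apart.

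The hormone classes of these comparisons were those of the pooled hormone cells, so melanotroph-like cells were not included. Against the mean of these hormone classes, folliculostellate-like cells were higher in 2 of the 9 genes. Of all genes tested, 34.4% were called (23.9% higher and 10.5% lower). Apoe was higher by 7.42 on the log2 scale (SE 0.24, edgeR adjusted p = 1.32e-17). Plin2 was higher by 1.52 (SE 0.35, edgeR adjusted p = 0.000567). With only 1 whole-gland lane, lane 2 or lane 1, it was higher by 2.37 or 2.48. Thyrotroph-like cells, which are among these hormone classes, held 0 Plin2 UMIs in the anterior library and 1 in whole glands. The sizes of these Plin2 folds are therefore uncertain. Clu at 0.82 and Fabp5 at 0.92 had adjusted p-values under the threshold but missed the size required, as did Abcg1 at -0.72. Abca1 (-0.24), Npc2 (0.12) and Apod (-0.32) did not pass. Without the anterior library, 4 genes were called in place of 2, with Clu at 1.22 and Lpl added, and the Apoe value was 6.53. With free RNA subtracted, Apoe stood at 12.55. That size depends on the Apoe UMIs left in the hormone classes after the subtraction, which are not given here, so it is uncertain.

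**Figure D5:**
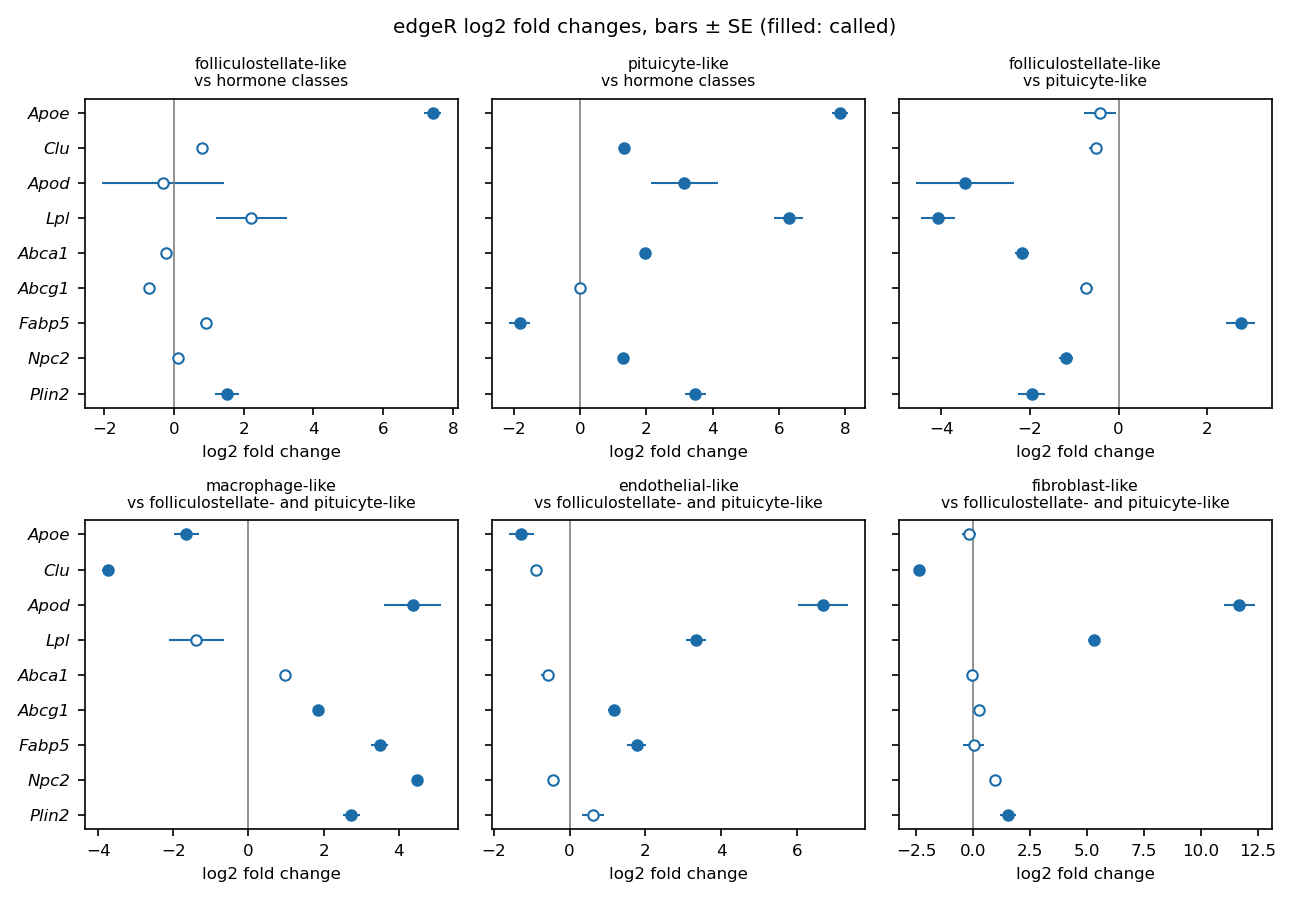
Fitted log2 fold change (points) with its standard error (bars) for the 9 genes in 6 comparisons of cell classes; filled points were called (adjusted p under 0.05 and size at least 1). Apoe lies far to the right in both comparisons with hormone classes (7.42 and 7.85) and near 0 between the 2 glia-like classes (-0.43). Apod and Lpl lie to the right in fibroblast-like cells (11.69 and 5.30). The Lpl points against hormone classes involve a class at 0 UMIs. The Plin2 points against hormone classes involve a class at 0 UMIs in dissected and 1 in whole glands. The Apod points of comparisons with pituicyte-like cells involve a whole-gland sum of 0 UMIs.

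Pituicyte-like cells, set against the same hormone classes, were higher in 7 genes and lower in 1, where 34.8% of all genes were called (20.7% higher and 14.1% lower). Apoe was higher by 7.85 (SE 0.24, edgeR adjusted p = 9.61e-18). Plin2 was higher by 3.48 (SE 0.32, edgeR adjusted p = 2.33e-09) and Abca1 by 1.96 (SE 0.13, edgeR adjusted p = 1.04e-11). Clu at 1.34 and Npc2 at 1.30 were also higher.

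Fabp5 was the gene that was lower, at -1.83 (SE 0.32, edgeR adjusted p = 4.13e-05). Lpl was called higher (edgeR adjusted p = 7.04e-11). Its fold is not given, since thyrotroph-like cells were at 0. Melanotroph-like cells, whose Lpl level overlapped that of pituicyte-like cells, are not among these hormone classes. Apod was called at 3.15 (edgeR adjusted p = 0.0111) on the posterior library alone, since the whole-gland count was 0. Without the posterior library, or with free RNA subtracted, pituicyte-like cells held no Apod UMI, so no fold is given and the call is lost. Abcg1 stood at 0.01 (edgeR adjusted p = 0.992). The Apoe value was 7.05 without the anterior library and 12.87 with free RNA subtracted. The size of 12.87 is likewise uncertain, since it depends on the Apoe left in the hormone classes. Plin2 stood at 4.57 with either lane left out, and Fabp5 at -2.69 without the posterior library. The Plin2 sizes are uncertain here too, since thyrotroph-like cells held 0 Plin2 UMIs in the anterior library and 1 in whole glands.

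Between the glia-like classes, folliculostellate-like cells were lower than pituicyte-like cells in 5 genes and higher in 1, where 30.1% of all genes were called (18.3% higher and 11.8% lower). Lpl stood at -4.08 (SE 0.39, edgeR adjusted p = 1.32e-08). Abca1 stood at -2.19 (SE 0.16, edgeR adjusted p = 6.55e-11), Plin2 at -1.96 (edgeR adjusted p = 1.18e-05) and Npc2 at -1.18 (edgeR adjusted p = 1.68e-06). Fabp5 was higher by 2.76 (SE 0.33, edgeR adjusted p = 2.34e-07). Apod was called at -3.47 (edgeR adjusted p = 0.0117), which was lost without the posterior library, where pituicyte-like cells held no Apod UMI, and with free RNA subtracted, where neither class held one. It was also not called without the anterior library (-1.59, edgeR adjusted p = 0.183).

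Apoe did not pass between these classes, at -0.43 (SE 0.36, edgeR adjusted p = 0.333), which does not show that they are equal. Clu at -0.52 (edgeR adjusted p = 0.00553) and Abcg1 at -0.73 (edgeR adjusted p = 0.000332) missed the size required. Plin2 was no longer called without the posterior library, at -1.45 (edgeR adjusted p = 0.103), and Fabp5 then stood at 3.57. Lpl stood at -2.16 without the anterior library, with the posterior folliculostellate-like cells in its place. With free RNA subtracted its call held, from 3 UMIs left in folliculostellate-like cells, and no fold is given.

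Macrophage-like cells were compared with the mean of the 2 glia-like classes, where 40.3% of all genes were called (20.5% higher and 19.8% lower). Of the 9 genes 5 were higher and 2 lower. Npc2 was higher by 4.49 (SE 0.13, edgeR adjusted p = 4.96e-18), Fabp5 by 3.49 (SE 0.22, edgeR adjusted p = 3.04e-12), Plin2 by 2.74 and Abcg1 by 1.86. In the MHC class II cluster alone and the other cluster alone, Npc2 stood at 4.15 and 4.70, Plin2 at 2.95 and 2.07, and Abcg1 at 1.85 and 1.64, all called. Fabp5 stood at 4.17 without the posterior library and, by cluster in the same order, at 3.96 and 1.65. In the dissected glands all macrophage-like Apod UMIs came from the posterior library. Apod was called at 4.37 (edgeR adjusted p = 3.15e-05). Its value was 2.90 without lane 1, which holds the single high cell described above, and 5.17 without lane 2, and it was not called in the MHC class II cluster alone (2.15, edgeR adjusted p = 0.0897). No Apod fold against this mean is given without the posterior library or with free RNA subtracted, in any class, since pituicyte-like cells then held none.

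Clu was lower, at -3.74 (SE 0.17, edgeR adjusted p = 7.85e-15; -2.84 with doublets kept), and so was Apoe, at -1.65 (SE 0.34, edgeR adjusted p = 0.000208). The Apoe call came from 1 cluster. In the MHC class II cluster alone the value was -3.75, and in the other cluster alone it was -0.49 (edgeR adjusted p = 0.229). Abca1 at 0.99 (edgeR adjusted p = 5.14e-06) lay just under the size required, and passed it in the other cluster alone (1.08, edgeR adjusted p = 2.85e-05).

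Endothelial-like cells, compared with the same mean, were higher in 4 genes and lower in 1, where 38.6% of all genes were called (21.8% higher and 16.9% lower). Apod was higher by 6.70 (SE 0.65, edgeR adjusted p = 8.01e-09) and Lpl by 3.33 (SE 0.26, edgeR adjusted p = 3.36e-10). Abcg1 was higher by 1.16. In the cluster not led by Aqp1 alone, the Apod value was 3.29 and the Lpl value 2.07. The Aqp1-led cluster also had the pericyte gene Rgs5 among its leading genes. Without the posterior library Lpl stood at 2.40, and without the anterior library Lpl stood at 2.55. Fabp5 was higher by 1.77 and was not called in the Aqp1-led cluster alone (0.72, edgeR adjusted p = 0.133). Apoe was lower, at -1.27 (SE 0.33, edgeR adjusted p = 0.00201), and this call was lost without the anterior library (-1.26, edgeR adjusted p = 0.073) and with free RNA subtracted (-1.42, edgeR adjusted p = 0.155).

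Fibroblast-like cells, also set against that mean, were higher in 3 genes and lower in 1, where 22.1% of all genes were called (14.2% higher and 7.84% lower). Apod was higher by 11.69 (SE 0.69, edgeR adjusted p = 4.58e-12) and Lpl by 5.30 (SE 0.25, edgeR adjusted p = 1.91e-13). In every comparison with this mean, its Apod level rests on 4 dissected and 17 whole-gland UMIs of folliculostellate-like cells. Pituicyte-like cells held 172 and 0, so the sizes of these Apod folds are uncertain. Of the 23674 dissected fibroblast-like Apod UMIs, 23637 came from the posterior library. Without the anterior library the Lpl value was 4.37. The class holds cells with Rgs5, which had more Lpl, as well as cells with Dcn and without Rgs5. Plin2 was higher by 1.53 (edgeR adjusted p = 0.00151), a call lost without the posterior library (1.33, edgeR adjusted p = 0.162). Clu was lower, at -2.37 (SE 0.16, edgeR adjusted p = 3.11e-11). Apoe stood at -0.20 (SE 0.31, edgeR adjusted p = 0.68), Npc2 at 0.95 and Fabp5 at 0.02.

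The 9 genes were placed among 80 genes of 8 lists of lipid genes, of which 61 were tested; Lipa stands in 2 lists. Folliculostellate-like cells were higher than the hormone classes in 28 and lower in 6 of them, with a median log2 fold change of 1.06 against 0.15 over all genes tested, of which 23.9% were called higher and 10.5% lower. Pituicyte-like cells were higher in 34 and lower in 5 (median 1.35 against 0.07), where 20.7% and 14.1% of all genes were. Between the glia-like classes, 12 were higher in folliculostellate-like cells and 21 in pituicyte-like cells (median -0.52 against 0.09), where 18.3% and 11.8% of all genes were. These counts describe lists that were chosen with results of these data known.

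Of the 7 exporters tested, 5 were higher in pituicyte-like than in folliculostellate-like cells and none lower, where 11.8% of all genes were called in that direction. Besides Abca1 these included Abca2 (-2.23), Abca8a (-4.60) and Abca9 (-6.45), each as folliculostellate-like minus pituicyte-like with an edgeR adjusted p of at most 9.86e-11. Srebf1, a regulator of lipid synthesis, stood at 339.6 CPM (dissected) and 363.0 CPM (whole) in pituicyte-like cells and differed by -3.70 (edgeR adjusted p = 2.34e-14). Dbi, a carrier of acyl-coenzyme A, stood at 2138 and 2054 CPM there (-2.30), and G0s2, an inhibitor of lipolysis, at 691.6 and 793.2 CPM (-1.25).

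Folliculostellate-like cells were higher than pituicyte-like cells in Mylip, which marks lipoprotein receptors for breakdown (2.20, edgeR adjusted p = 4.98e-12), and in the phospholipid transfer protein Pltp (1.89, edgeR adjusted p = 0.00174). The reelin and Apoe receptor Lrp8 was lower (-1.51, edgeR adjusted p = 1.32e-08), at 122.8 and 97.9 CPM in pituicyte-like cells. Lrp1, a receptor that takes up Apoe, had its top level in fibroblast-like cells, at 597.6 and 392.3 CPM.

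In macrophage-like cells 6 of the 8 lysosomal genes tested were higher than in the glia-like mean and none lower (median 1.78, against -0.004 over all genes), where 20.5% and 19.8% of all genes were called. Beside Npc2 these included Lipa, the lysosomal acid lipase (4.44), Gm2a, a ganglioside activator (3.87), and Psap, the saposin precursor (1.03), the last at 2170 and 1730 CPM. Soat1, which esterifies cholesterol, was higher by 2.50 and Hilpda by 2.23. In endothelial-like cells 5 of 7 tested lipases and partners were higher and 1 lower, where 21.8% and 16.9% of all genes were called, among them Mgll (5.13, at 281.2 and 169.6 CPM) and Lipe (4.46). Over all lists, 23 genes were higher and 14 lower in macrophage-like cells (20.5% and 19.8% of all genes). The counts were 20 and 14 in endothelial-like cells (21.8% and 16.9% of all genes) and 20 and 10 in fibroblast-like cells (14.2% and 7.84% of all genes).

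Last, the genes whose level over the 11 classes was most like that of each member were named, by the lower of the 2 Pearson correlations of log levels (1 per preparation) among 5092 genes. The points are classes that share libraries, so the values describe likeness only. Closest to Apoe were Ccdc107 (0.981 and 0.978), Ak3 (0.972 and 0.959) and Vim (0.953 and 0.957), the last encoding the filament protein vimentin of mesenchymal and glial cells. Closest to Apod were Lum (0.974 and 0.963), Tcf21 (0.958 and 0.951) and C7 (0.967 and 0.951). Lum was among the markers used to name fibroblast-like cells.

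For Npc2 the closest gene was Ctsb, which encodes the lysosomal protease cathepsin B (0.933 and 0.945). For Plin2 they were Pmepa1, Plau and Maf (Pmepa1 at 0.984 and 0.970), and for Abca1 Glmp (0.931 and 0.948). Arhgef2 was closest to Abcg1 (0.887 and 0.887), Arl5b to Fabp5 (0.896 and 0.899) and Rnf144a to Lpl (0.843 and 0.891). Clu had the lowest best match, Chn1, at 0.790 and 0.804, so its order of classes was shared least.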

How the data were processed

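Pituitary messenger RNA was measured in 4 single-cell libraries: anterior, posterior and 2 lanes of whole gland. The deposited matrix holds counts (whole UMI counts per gene and barcode), made by the authors with Cell Ranger 3.1 per the submitters' processing notes. Library totals over deposited barcodes were 61981865 to 72754998 UMIs. Genome build, annotation and any equalizing of depth are not given in the sources used here. A barcode suffix, named in the labels, gave the library.

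Of 32455 barcodes, 20381 had at least 1000 UMIs, at least 500 genes and no more than 20% of UMIs from mitochondrial genes. Of these, 604 with a Scrublet doublet score above 0.25 were left out. Leiden clustering in scanpy 1.11.5 (resolution 1.0, 15 neighbors, 30 principal components of 2000 variable genes) gave the clusters, with 78 genes of the lists, all 9 members included, left out. Macrophage-like clusters were described apart, since 1 was led by MHC class II genes, with none of its own markers and 1 of another class (Lyz2) among its 10 leading genes.

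Levels are CPM of summed UMIs, with exact 95% Poisson intervals and, at 0, a limit of 3 counts. Both cover counting error only. Shares used cells thinned to 1000 UMIs. Classes of 50 or more cells in each preparation gave 22 sums of 11 classes, tested with edgeR 4.0.16 (filterByExpr, trimmed-mean scaling, class and preparation as terms, 10 residual degrees of freedom, Benjamini-Hochberg over all genes). The fit was also run on simulated counts with set changes in genes of higher counts and no other class differences. That run does not cover members with sums at or near 0. DESeq2 1.42.0 and other settings were alternatives. Free RNA, in 1 alternative, was taken from barcodes under 1000 UMIs and scaled to other classes' markers. That removed 1.39% to 48.6% of a class's UMIs. The barcodes used for it belong to the deposited set and are not known to be empty droplets. Whether cells of low depth are among them was not tested, so the subtracted RNA may not all be free RNA.

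All members are named, with the genes of the lists of highest CPM (at most 3 a list) and the 3 most alike per member. Members and lists were chosen with earlier results of these data known. Preparations give the 2 replicates. With preparation as a term, p-values measure how class differences vary between the 2 preparations, and not the spread between animals. The fit has preparation as a block because class sums of 1 preparation come from the same animals.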

Additional observations from a re-analysis of the deposited data

How the results depend on the processing

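Of 792 fold changes recomputed under 13 planned and 5 later settings (the latter chosen after seeing the data), 727 kept their direction and their side of the threshold, 12 lost a call, 25 gained one and 28 changed sign. Of the 32 calls, 8 lost their call under at least 1 setting. The cause of each change was not tested. The count of genes called in folliculostellate-like cells against hormone classes was 2 and ranged from 3 to 4 with 1 library left out, 4 being without the anterior library; the other counts stayed within 1.5 times. With no replicate block (preparation left out of the fit), the counts were 2, 8, 6, 7, 5 and 4, as with it, and the one sign that changed was Abcg1 in pituicyte-like against hormone cells (-0.05).

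Sign changes were as follows, on the log2 scale. Against hormone classes, folliculostellate-like Npc2 went from 0.12 to -0.14 with free RNA subtracted and to between -0.16 and 0.19 with 1 library left out; Lpl to -0.02 with free RNA subtracted; Apod to 0.60 at a mitochondrial limit of 15% and to between -0.66 and 0.38 with 1 library left out. Pituicyte-like Apod went from 3.15 to -5.04 with free RNA subtracted and to between -6.25 and 3.84 with 1 library left out. Under DESeq2 it kept its sign, at 2.57, and lost its call (DESeq2 adjusted p = 0.051). Abcg1 there was -0.005 under DESeq2, -0.03 with free RNA subtracted and between -0.50 and 0.12 with 1 library left out. Folliculostellate-like against pituicyte-like Apod was 0.66 with free RNA subtracted and between -3.96 and 5.88 with 1 library left out. The ends of -6.25 and 5.88, without the posterior library, and the Apod values with free RNA subtracted rest on pituicyte-like cells with no Apod UMI, so they depend on the prior count and give neither a size nor a direction; Lpl against hormone classes also involves a class at 0.

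In fibroblast-like cells against the glia-like mean, Fabp5 (0.02) was -0.14 with no low-count filter, -0.12 with doublets kept, -0.16 at a mitochondrial limit of 15%, -0.057 with dissected sums over both libraries, -0.044 with free RNA subtracted, -0.58 without hormone-rich non-endocrine cells and between -0.36 and 0.75 with 1 library left out. Abca1 (-0.04) was 0.025 with RLE factors, 0.044 with DESeq2, 0.042 with doublets kept and between -0.21 and 0.12 with 1 library left out. Abcg1 (0.27) was between -0.18 and 0.35 with 1 library left out.

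Depth limits the low members: Lpl, Plin2 and Apod rest on under 30 UMIs in several class sums. Without the posterior library, classes with too few anterior cells have 1 sum, which is assumed to vary like the others.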
